A study of Homo sapiens with 6 samples.

Results

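The melanoma antigen (MAGE) family was followed in MDA-MB-231 cells, an established human breast cancer cell line, after treatment with guadecitabine (SGI-110), a DNA methyltransferase inhibitor that releases decitabine. Members were the transcripts whose gene symbol begins with MAGE, a letter from A to F, H or L, and a number. By this rule 23 of the 17100 transcripts in the deposited table were members, each with its own gene symbol. Type I comprised 16 genes of the MAGEA, MAGEB and MAGEC groups, and type II comprised 7 genes of the MAGED, MAGEE, MAGEF, MAGEH and MAGEL groups. Guadecitabine cells received 1 µM of the drug for 96 h and were then kept without it for 24 h, and vehicle cells served as their control. Both groups were grown in DMEM with 10% fetal bovine serum, and each had 3 RNA sequencing libraries from independent experiments. All libraries came from a single cell line.

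All MAGE proteins share a MAGE homology domain, through which many of them bind a RING ubiquitin ligase and alter what it modifies. Type I genes lie on chromosome X, are expressed mainly in male germ cells, are kept silent by DNA methylation in most other cells and reappear in many tumors, where T cells can recognize their peptides. Type II genes are expressed in many normal tissues, and some of them are not X-linked. In the table, 21 of the 23 members lay on chromosome X, among them all 16 type I genes, while MAGEF1 lay on chromosome 3 and MAGEL2 on chromosome 15.

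The vehicle libraries held between 17602570 and 22277442 counts and the guadecitabine libraries between 8792127 and 21410849. A transcript was listed in the table with at least 11 counts over the 6 libraries. Vehicle replicate 3 stood apart with 20 transcripts at 0 counts, against 1593 to 2517 in the other libraries. Of the markers of MDA-MB-231, VIM, CD44, AXL, KRT18, KRT8 and MKI67 were expressed in every library, and ESR1 and PGR had at most 1 count outside vehicle replicate 3. GATA3, EPCAM and ERBB2, listed as low markers, were present at 119, 194 and 350 normalized counts per kb in vehicle cells. Levels below are normalized counts per kb of the exon length counted for a transcript, and floors and intervals based on counts cover counting error only.

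Promoter sequences of type I genes are shown first, because 9 genes of this type rose. RefSeq promoters on GRCh38.p14, from 250 bases before to 50 bases after a start site, were at hand for 20 of the 23 members, namely 14 type I and 6 type II genes, but not for MAGEA10, MAGEB17 and MAGEH1. A 7-base word, GGATGTG, was searched for on both strands after the promoters had been read, so that its frequency is a description. It was present in 16 of 21 type I promoters (76.2%), in 0 of 8 type II promoters and in 712 of 18503 promoters of other genes in the table (3.85%). The longer word CGGATGTG, which contains it and adds a CpG site, was present in 13 type I promoters (61.9%), in 0 type II promoters and in 0.751% of the others. A different word, CCGGAA, was in 3 of 21 type I promoters, in 3 of 8 type II promoters and in 22.5% of the others. The type I promoters held 17 copies of GGATGTG on the strand of the gene, beginning between 86 and 6 bases before the nearest start site of the gene. Type I promoters resemble each other and some overlap, and therefore they are not independent of each other. In the windows below, the 7 bases are in capitals with 15 bases on either side, and the coordinates are those of GRCh38.p14.
MAGEA3 (chrX:152698693-152698729, plus strand): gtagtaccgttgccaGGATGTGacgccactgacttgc
MAGEA4 (chrX:151912840-151912876, plus strand): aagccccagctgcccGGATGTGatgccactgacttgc
MAGEA11 (chrX:149712032-149712068, plus strand): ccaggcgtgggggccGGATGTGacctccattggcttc
MAGEA12 (chrX:152733730-152733766, plus strand): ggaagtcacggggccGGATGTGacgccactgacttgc
MAGEB1 (chrX:30247120-30247156, plus strand): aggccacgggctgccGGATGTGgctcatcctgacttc
MAGEB2 (chrX:30215485-30215521, plus strand): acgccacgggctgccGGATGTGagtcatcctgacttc
MAGEB2 (chrX:30215531-30215567, plus strand): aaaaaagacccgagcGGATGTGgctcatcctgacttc
MAGEC1 (chrX:141903849-141903885, plus strand): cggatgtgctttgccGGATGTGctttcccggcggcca
MAGEC2 (chrX:142205275-142205311, minus strand): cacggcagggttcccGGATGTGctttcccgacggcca
The window of MAGEA6 was the same as that of MAGEA3, and their 300-base promoters had 0 differences. MAGEA4 had 5 promoters, each with the word, and the window shown is from the promoter at the start site that was counted. MAGEB2 held the word at 2 positions. MAGEC1 also held it at 2 positions, of which the one nearer to the start site is shown.

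Guadecitabine raised most of the type I genes that could be tested and none of the type II genes. Of the 16 type I genes, 11 had enough counts for the test, and 9 of these rose and 0 fell (quasi-likelihood test of edgeR on 13322 genes, p adjusted by Benjamini-Hochberg and under 0.05). Among all genes tested, 19.3% rose and 18.4% fell. The genes that rose were MAGEA3, MAGEA4, MAGEA6, MAGEA11, MAGEA12, MAGEB1, MAGEB2, MAGEB17 and MAGEC2. MAGEA10 and MAGEC1 did not pass the threshold, and MAGEA8, MAGEB3, MAGEB4, MAGEB5 and MAGEB16 had too few counts to be tested. Of the 11 tested genes, 9 reached the minimum count of the test only with their guadecitabine libraries, so that a fall could hardly be found for them, and MAGEC1 and MAGEC2 were the type I genes with enough counts in vehicle libraries alone. The count of genes that rose is therefore a description, and each gene is given below with its counts. In RNA from a whole culture, a larger share of cells expressing a gene and more RNA per expressing cell cannot be told apart.

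**Figure D1:**
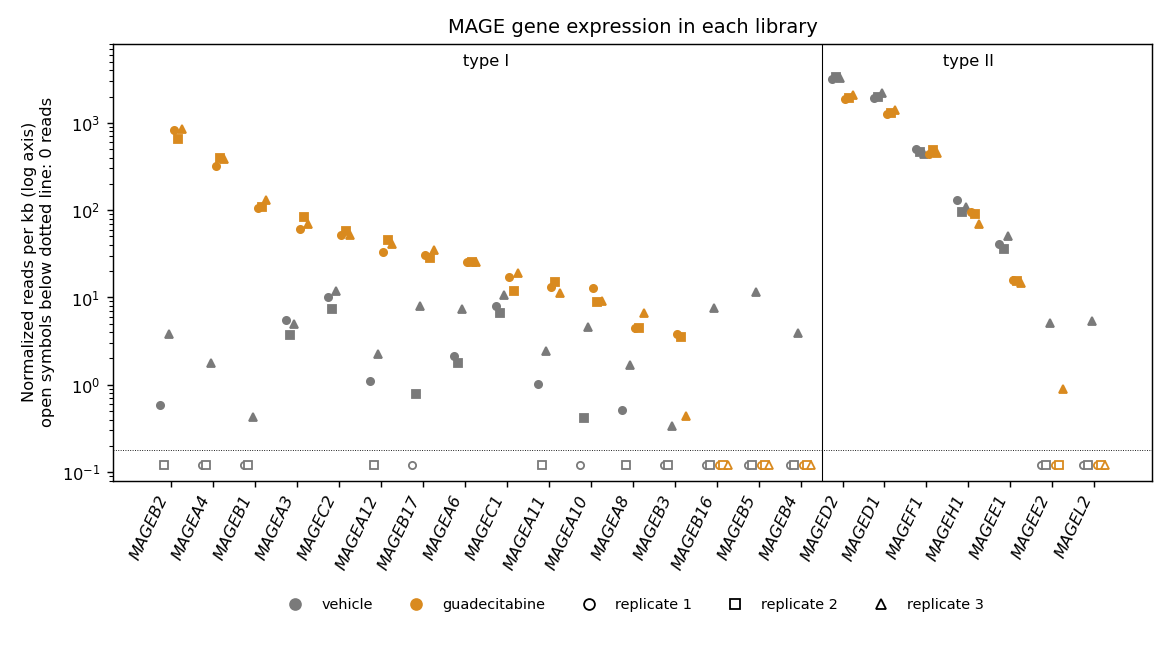
Normalized reads per kb (log axis) of the 23 MAGE genes in 3 vehicle libraries (grey) and 3 guadecitabine libraries (orange), with the replicate given by the symbol and libraries with 0 reads drawn open below the dotted line. MAGEB2 lay at 658 to 845 and MAGEA4 at 325 to 399 after guadecitabine, and the type II genes MAGED1 and MAGED2 lay above all type I genes in both groups.

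MAGEB2 reached the highest level of the type I genes. It encodes a protein of spermatogonia that is known to limit the stress granule factor G3BP1. MAGEB2 had 1, 0 and 8 counts in vehicle replicates 1, 2 and 3 and 1636, 521 and 1349 counts in guadecitabine replicates 1, 2 and 3. The lower count in guadecitabine replicate 2 went with its lower depth, and all guadecitabine libraries lay far above all vehicle libraries. Per kb, the level went from 1.47 ± 2.06 to 775 ± 102 (SD, n = 3), and the log2 fold change was 8.78 with a standard error of 0.37 (edgeR adjusted p = 5.57e-07). Of its 9 vehicle counts, 8 lay in replicate 3, and without that library the log2 fold change was 10.95. The standard error of 0.37 does not cover this shift, and DESeq2's Wald test with all libraries gave a standard error of 0.51. After guadecitabine MAGEB2 ranked at the 86.7th percentile of the per-kb levels of all 17100 transcripts.

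MAGEA4, a target of engineered T cells in solid tumors, came next. Vehicle replicates had 0, 0 and 4 counts of MAGEA4, and guadecitabine replicates had 691, 338 and 658. The level per kb after guadecitabine was 370 ± 39.7 (SD, n = 3), and the log2 fold change was 8.90 with a standard error of 0.39 (edgeR adjusted p = 7.06e-07). This fold change rested on the 4 counts of vehicle replicate 3, and without that library it was 12.23. The standard error of 0.39 does not cover this shift, and DESeq2's Wald test with all libraries gave a standard error of 0.75. Without vehicle replicate 3, MAGEA4 was at least 212-fold higher against a floor of 3 counts in each remaining vehicle library. MAGEB1 had 0, 0 and 1 counts in vehicle and 232, 95 and 234 counts in guadecitabine libraries. Its level after guadecitabine was 115 ± 14.8 per kb (SD, n = 3), and the log2 fold change was 8.91 with a standard error of 0.45 (edgeR adjusted p = 1.62e-06). The ratio of depth-scaled counts was 680 with a 95% counting interval of 121 to 26894. Both values rested on the 1 count of vehicle replicate 3, and without that library MAGEB1 was at least 68.3-fold higher against the same floor. The edgeR log2 fold change of MAGEB1 was then 10.60. DESeq2's standard error for MAGEB1 with all libraries was 1.21, larger than the 0.45 of edgeR. MAGEB1, MAGEA4 and MAGEB2 thus went from at most 8 counts in any vehicle library to at least 95 in every guadecitabine library.

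A second group of type I genes rose to lower levels. MAGEA3 and MAGEA6 encode nearly identical proteins that direct the ubiquitin ligase TRIM28 to the energy sensor AMPK. Vehicle replicates had 10, 6 and 11 counts of MAGEA3, and guadecitabine replicates had 129, 70 and 119. MAGEA6 had 4, 3 and 17 counts in vehicle and 56, 22 and 45 counts in guadecitabine libraries. The vehicle value of MAGEA6 was highest in replicate 3, still below every guadecitabine library once scaled to depth. The log2 fold change was 3.88 with a standard error of 0.33 for MAGEA3 (edgeR adjusted p = 3.69e-05) and 2.69 with a standard error of 0.62 for MAGEA6 (edgeR adjusted p = 0.00862). Of the 50-base stretches in their annotated exons on GRCh37, 43.9% in MAGEA3 and 40.9% in MAGEA6 occurred once in the genome, and 54.3% of those of MAGEA3 were also found in MAGEA6. The division of reads between this pair is therefore uncertain, and in every other member at least 90.5% of the stretches occurred once. Summed over both genes there were 14, 9 and 28 counts in vehicle and 185, 92 and 164 in guadecitabine libraries, with a log2 fold change of 3.45 and a standard error of 0.31 (edgeR adjusted p = 4.55e-05).

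MAGEC2, which also binds TRIM28, was among the few type I genes with reads in every vehicle library. It had 21, 14 and 31 counts in vehicle and 128, 57 and 102 counts in guadecitabine libraries. Its level per kb went from 9.82 ± 2.3 to 53.9 ± 3.68 (SD, n = 3), with a log2 fold change of 2.44 and a standard error of 0.30 (edgeR adjusted p = 3.15e-04). MAGEA12, a tumor antigen gene on Xq28, had 2, 0 and 5 counts in vehicle and 72, 39 and 71 counts in guadecitabine libraries. Its log2 fold change was 4.99 with a standard error of 0.69 (edgeR adjusted p = 5.72e-04).

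MAGEA11 and MAGEB17 passed the threshold less firmly. MAGEA11, a coregulator of the androgen receptor, had 2, 0 and 6 counts in vehicle and 31, 14 and 21 counts in guadecitabine libraries, with a log2 fold change of 3.35 and a standard error of 0.83 (edgeR adjusted p = 0.0124). MAGEB17 had 0, 1 and 14 counts in vehicle and 51, 19 and 47 counts in guadecitabine libraries, with a log2 fold change of 3.29 and a standard error of 0.93 (edgeR adjusted p = 0.0215). Its vehicle counts lay almost entirely in replicate 3. Both calls were lost when single libraries were left out, with an adjusted p of up to 0.0576 for MAGEA11 without guadecitabine replicate 3 and up to 0.0966 for MAGEB17 without the same library. MAGEA11 also missed the threshold without guadecitabine replicate 1 (adjusted p = 0.0515). MAGEB17 missed it without vehicle replicate 2 (0.0612), guadecitabine replicate 1 (0.0638) or guadecitabine replicate 2 (0.0508). Without vehicle replicate 3 the log2 fold change was 4.44 for MAGEA11 (edgeR adjusted p = 4.72e-04) and 6.08 for MAGEB17 (edgeR adjusted p = 3.72e-05).

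MAGEA10 and MAGEC1 were the tested type I genes that did not pass. MAGEA10 had 0, 1 and 15 counts in vehicle and 40, 11 and 23 counts in guadecitabine libraries, with a log2 fold change of 2.51, a 95% interval of 0.31 to 4.72 and an edgeR adjusted p of 0.0714. Without vehicle replicate 3 its log2 fold change was 5.40 and its edgeR adjusted p 2.17e-04. MAGEC1, a large antigen first found in melanoma and often present in myeloma, had 36, 27 and 59 counts in vehicle and 92, 25 and 82 counts in guadecitabine libraries. Its log2 fold change was 0.95 with a 95% interval of 0.17 to 1.72 (edgeR adjusted p = 0.0556), and without vehicle replicate 3 it was 1.17 (edgeR adjusted p = 0.00671). DESeq2's Wald test with all 6 libraries placed both genes under the threshold, with an adjusted p of 0.0369 for MAGEA10 and 0.0378 for MAGEC1.

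**Figure D2:**
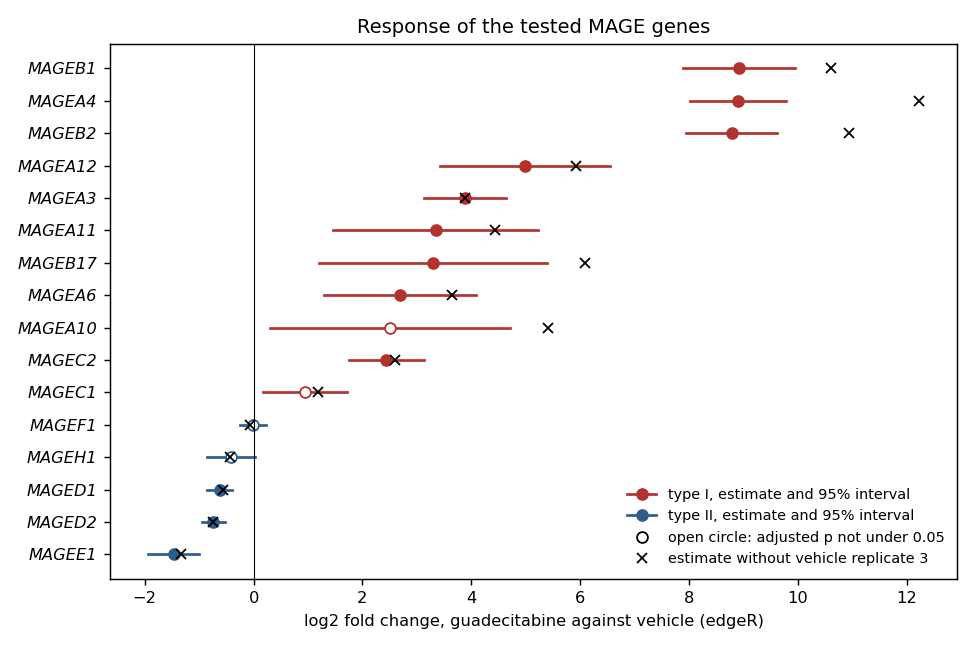
Log2 fold change of guadecitabine against vehicle for the 16 tested MAGE genes, with the estimate and 95% interval of edgeR's quasi-likelihood test (type I red, type II blue, open circles not under an adjusted p of 0.05) and the estimate without vehicle replicate 3 (crosses). The 11 type I estimates lie between 0.95 and 8.91 and the 5 type II estimates between -1.47 and -0.01. The cross moves farthest from the circle in MAGEA4, MAGEA10, MAGEB17, MAGEB2 and MAGEB1, whose vehicle counts lay mostly or only in replicate 3.

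The 5 type I genes that could not be tested divided by whether reads appeared after guadecitabine. MAGEA8 had 1, 0 and 4 counts in vehicle and 10, 4 and 12 counts in guadecitabine libraries. MAGEB3 had 0, 0 and 1 counts in vehicle and 11, 4 and 1 counts in guadecitabine libraries, so that only the first and second of these rose above the floor of 3 counts. MAGEB4, MAGEB5 and MAGEB16 had 0 counts in all guadecitabine libraries and in vehicle replicates 1 and 2. Vehicle replicate 3 alone held their reads, with 11 counts of MAGEB4 and 18 each of MAGEB5 and MAGEB16. When all 17100 transcripts were tested without a filter, none of the 5 genes passed, with edgeR adjusted p values of 0.227 to 0.312 and log2 fold changes of either sign.

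Reads of vehicle replicate 3 at MAGE genes were set against those at other genes that were quiet elsewhere. There were 1521 transcripts outside the family with at most 1 count in each of the other libraries, and they had a median of 7.99 counts per kb in vehicle replicate 3, with a 10th percentile of 4.44 and a 90th percentile of 16.6. Such transcripts were in the table only through that library, because of its minimum of 11 counts in all. The same held for MAGEB4, MAGEB5, MAGEB16, MAGEE2 and MAGEL2, so that their place beside these transcripts is a description. MAGEB16 with 9.90 counts per kb, MAGEB5 with 14.8, MAGEB4 with 5.05, and the type II genes MAGEE2 with 6.65 and MAGEL2 with 6.98 lay within that range. So did 7 type I genes with more counts elsewhere, from MAGEB2 with 4.96 to MAGEC2 with 15.5, the others being MAGEA3, MAGEA6, MAGEA10, MAGEB17 and MAGEC1. MAGEB1 with 0.56 counts per kb, MAGEB3 with 0.43, MAGEA8 with 2.18, MAGEA4 with 2.32, MAGEA12 with 2.88 and MAGEA11 with 3.18 lay below it. What part this library's reads play in the vehicle values of low genes was not tested beyond leaving it out. Without it all 11 tested type I genes rose, beside 3002 of the 13296 genes tested in all. Most of the 11 reached the minimum count of the test only with their guadecitabine libraries, so that their count is a description.

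**Figure D3:**
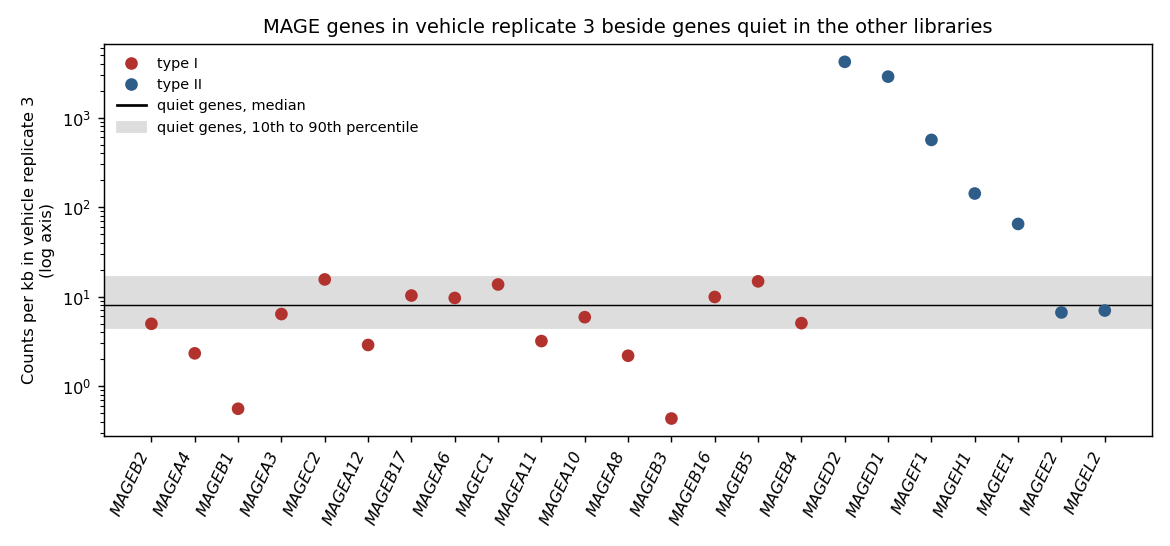
Counts per kb (log axis) of each MAGE gene in vehicle replicate 3, with type I in red and type II in blue. The grey band spans 4.44 to 16.6, the 10th to 90th percentile of 1521 transcripts with at most 1 count in each other library, and the line is their median of 7.99. The band holds 10 type I genes and the type II genes MAGEE2 and MAGEL2.

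With vehicle replicate 3 left aside, 8 of the 16 type I genes went from near silence to detection. At most 3 counts in each of vehicle replicates 1 and 2 were found for 12 of the 16 type I genes, and 8 of these 12 (66.7%) had more than 3 counts in every guadecitabine library. The same was true of 503 of all 3514 transcripts that were as quiet (14.3%) and of 43 of 141 such transcripts on chromosome X outside the family (30.5%). The 8 genes were MAGEA4, MAGEA8, MAGEA10, MAGEA11, MAGEA12, MAGEB1, MAGEB2 and MAGEB17. In vehicle replicate 3, MAGEA10 had 15 counts and MAGEB17 had 14. Transcripts as quiet as these were listed only through vehicle replicate 3 or guadecitabine libraries, because of the minimum of 11 counts. The shares are therefore a description. MAGEC1, MAGEC2, MAGEA3 and MAGEA6 had more than 3 counts in vehicle replicate 1, more than any other type I gene in that library.

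After guadecitabine the type I genes formed a ranked series of levels per kb. MAGEB2 at 658 to 845 was above MAGEA4 at 325 to 399, which was above MAGEB1 at 105 to 132. Below them came MAGEA3 at 60.6 to 82.6, MAGEC2 at 51.6 to 58.2 and MAGEA12 at 33.6 to 45.7. MAGEA12 overlapped with MAGEB17 at 28.4 to 34.8, and MAGEC1 at 11.8 to 19.2 overlapped with MAGEA11 at 11.2 to 15.1, which overlapped with MAGEA10 at 8.79 to 12.7. No other neighbors among the 13 type I genes with reads after guadecitabine overlapped. MAGEB2 contributed 50.6% ± 4.71 of the summed type I level (SD, n = 3), and MAGEB2, MAGEA4 and MAGEB1 together contributed 82.3% ± 1.69.

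The MAGEB cluster on Xp21 held neighbors with very different counts. MAGEB2, MAGEB3, MAGEB4 and MAGEB1 lie in this order within 36481 bp, at 30233675 to 30270155 on chromosome X of hg19 and on the plus strand. After guadecitabine MAGEB2 had 521 to 1636 counts, MAGEB3 had 1 to 11, MAGEB4 had 0 in all libraries and MAGEB1 had 95 to 234. The transcripts counted for MAGEB4 and MAGEB1 overlap by 461 bp, of which 88 bp are annotated exon in both. The promoters of MAGEB2 and MAGEB4 are shown as those of neighbors with the highest count and with 0 counts, with every CpG in capitals, since CpG is the site that DNA methyltransferases modify.
MAGEB2 promoter (chrX:30215313-30215612, plus strand): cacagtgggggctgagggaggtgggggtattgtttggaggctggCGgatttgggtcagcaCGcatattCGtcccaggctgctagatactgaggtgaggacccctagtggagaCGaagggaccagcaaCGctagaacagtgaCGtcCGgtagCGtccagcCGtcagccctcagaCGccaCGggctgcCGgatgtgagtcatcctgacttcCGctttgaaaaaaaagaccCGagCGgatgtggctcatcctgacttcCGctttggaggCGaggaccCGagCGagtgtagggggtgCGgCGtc
MAGEB4 promoter (chrX:30241750-30242049, plus strand): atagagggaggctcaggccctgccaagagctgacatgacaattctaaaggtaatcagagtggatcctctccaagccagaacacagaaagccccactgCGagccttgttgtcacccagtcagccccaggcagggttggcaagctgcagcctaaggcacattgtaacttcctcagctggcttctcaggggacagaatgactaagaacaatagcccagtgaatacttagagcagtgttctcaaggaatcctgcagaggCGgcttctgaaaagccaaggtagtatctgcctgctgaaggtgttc
The MAGEB2 promoter held 21 CpG sites and the MAGEB4 promoter 2. The MAGEB3 promoter held 3. MAGEB1 had a promoter with 1 CpG at the start site that was counted and a second one, 3415 bp downstream, with 18.

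Over the family, CpG content and the level after guadecitabine could be set side by side for 20 genes. The 8 type I genes that rose and had a promoter in RefSeq all held GGATGTG, and the highest CpG count among each gene's promoters was between 10 and 21. For MAGEB1 both came from the downstream promoter, and the word was missing from the promoter at the start site that was counted. MAGEA8, MAGEB16 and MAGEC1 held it too, with 12 to 14 CpG sites. Of these, MAGEC1 was tested and not called, and MAGEA8 and MAGEB16 were not tested. The type I genes without it were MAGEB3, MAGEB4 and MAGEB5, with 2 to 4 CpG sites. MAGEB16 had 13 CpG sites and the 7-base word but 0 counts after guadecitabine. Outside the family, 20.5% of 522 tested genes with GGATGTG in a promoter rose, beside 19.4% of 9656 tested genes without it. Promoters of other genes had a median of 23 CpG sites, type I promoters 13 and type II promoters 10.5. The start site of MAGEA11 in the promoter table was 23817 bp from the one counted, and DNA methylation was not measured in these libraries.

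**Figure D4:**
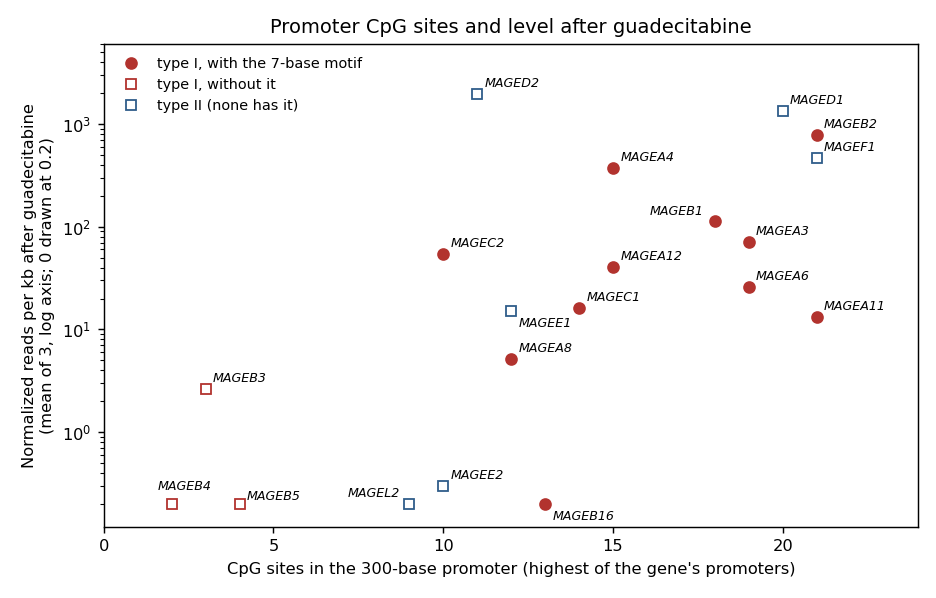
CpG sites in the 300-base promoter (highest of each gene's promoters) against the mean normalized reads per kb after guadecitabine (log axis, n = 3, 0 drawn at 0.2) for 14 type I genes in red and 6 type II genes in blue. Circles hold the 7-base word and squares do not, and MAGEB3, MAGEB4 and MAGEB5 stand at the left with 2 to 4 CpG sites and 0 to 2.61 reads per kb.

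Type II genes went the other way or did not pass the test. Of the 7 genes, 5 were tested, 3 of them fell and 0 rose, beside 18.4% and 19.3% of all genes, and their median log2 fold change was -0.63. Vehicle and guadecitabine libraries did not overlap in 4 of the 5, beside 51.7% of all genes. Among these 4, MAGEH1 was separated by a very small margin and was not called.

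MAGED2, which controls salt transport in the fetal kidney, was the most abundant MAGE gene in both groups. It had 7342, 6974 and 9240 counts in vehicle and 5107, 2055 and 4501 counts in guadecitabine libraries. Its level per kb went from 3261 ± 85.4 to 1951 ± 102 (SD, n = 3), a fall of 1.67-fold with a 95% interval of 1.44 to 1.93 (log2 fold change -0.74, edgeR adjusted p = 3.26e-04). MAGED1, an adaptor of the neurotrophin receptor NGFR in programmed cell death, had 5410, 5017 and 7611 counts in vehicle and 4163, 1698 and 3718 counts in guadecitabine libraries. Its level per kb went from 2055 ± 145 to 1331 ± 75.9 (SD, n = 3), a fall of 1.54-fold with a 95% interval of 1.32 to 1.81 (log2 fold change -0.63, edgeR adjusted p = 0.00138). For both genes the highest guadecitabine library was below the lowest vehicle library.

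MAGEE1, which binds dystrobrevin at the cell membrane, had 158, 127 and 240 counts in vehicle and 73, 28 and 53 counts in guadecitabine libraries. It fell by the largest factor of the 5 tested type II genes, 2.77-fold with a 95% interval of 2.01 to 3.81 (log2 fold change -1.47, edgeR adjusted p = 5.78e-04). Its levels of 14.5 to 15.97 per kb after guadecitabine were below all vehicle levels of 36.2 to 50.1. MAGED1, MAGED2 and MAGEE1 were also called lower in every alternative run, including each library left out.

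MAGEF1 and MAGEH1 did not pass. MAGEF1, a single-exon gene whose protein acts on the iron-sulfur assembly factor MMS19, had 877, 740 and 948 counts in vehicle and 918, 404 and 755 counts in guadecitabine libraries. Its groups overlapped, and the 95% interval of its log2 fold change of -0.01 was -0.25 to 0.22 (edgeR adjusted p = 0.923). MAGEH1 had 205, 135 and 210 counts in vehicle and 176, 65 and 101 counts in guadecitabine libraries, with a log2 fold change of -0.41 and a 95% interval of -0.85 to 0.03 (edgeR adjusted p = 0.130). The lowest vehicle library and the highest guadecitabine library of MAGEH1 both lay at 96.3 per kb. MAGEE2 and MAGEL2, an imprinted gene of the Prader-Willi region, were not tested. They had 0 counts outside vehicle replicate 3, where they had 15 and 30, except for 2 counts of MAGEE2 in guadecitabine replicate 3.

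Summed over the genes of a type, the normalized level per kb of type I was 28.9, 20.7 and 83.1 in vehicle replicates 1, 2 and 3 and 1505, 1449 and 1632 in guadecitabine replicates 1, 2 and 3. The mean went from 44.2 ± 33.9 to 1528 ± 93.8 (SD, n = 3). For type II the sums were 5797, 5949 and 6073 in vehicle and 3709, 3802 and 4023 in guadecitabine libraries, with means of 5939 ± 138 and 3844 ± 161. Type I genes thus made up 0.73% ± 0.54 of the summed MAGE level in vehicle and 28.4% ± 0.73 in guadecitabine libraries. Even after treatment the type II sum was higher than the type I sum in each library.

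**Figure D5:**
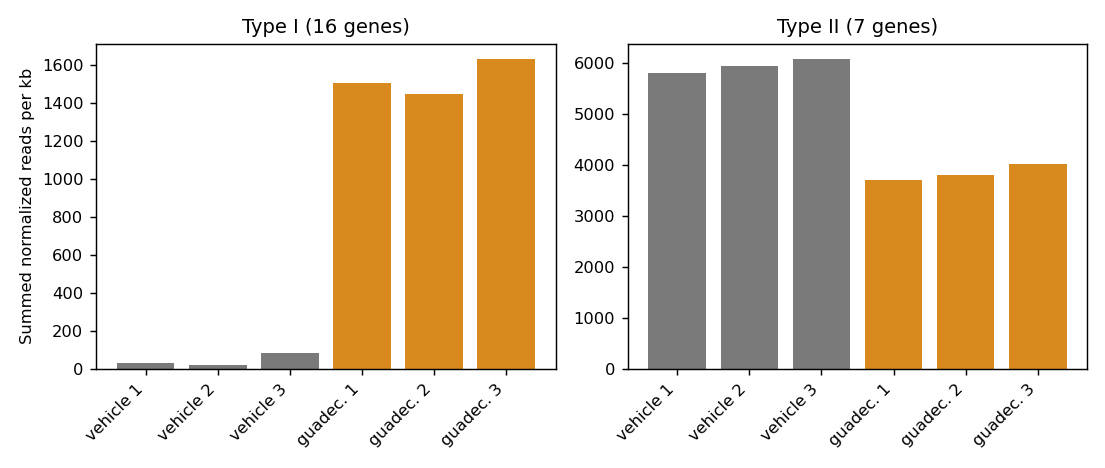
Summed normalized reads per kb of 16 type I genes (left) and 7 type II genes (right) in each library, with vehicle in grey and guadecitabine in orange and a separate axis for each type. Type I sums were 20.7 to 83.1 in vehicle and 1449 to 1632 in guadecitabine libraries, and type II sums were 5797 to 6073 and 3709 to 4023.

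Genes related to the family by sequence or by binding were examined as lists. Outside the naming rule, 3 genes with a MAGE homology domain were in the table, and 1 of the 2 that could be tested fell, beside 18.4% of all genes. This was TRO (trophinin), with 83, 61 and 103 counts in vehicle and 53, 20 and 41 in guadecitabine libraries and a log2 fold change of -0.83 (edgeR adjusted p = 0.0403). NDNL2, also called NSMCE3, a subunit of the SMC5/6 complex, had a log2 fold change of -0.31 (edgeR adjusted p = 0.0642), and NDN was not tested.

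Of 26 binding partners of MAGE proteins, 25 were tested, and 4 rose (16%) and 6 fell (24%), beside 19.3% and 18.4% of all genes. Their median log2 fold change was 0.06. The ligase TRIM31 was not tested and had 0, 1 and 47 counts in vehicle and 0, 1 and 3 counts in guadecitabine libraries. TRIM28, the ligase bound by MAGEA3, MAGEA6 and MAGEC2, had a level of 4225 per kb in vehicle and 3144 in guadecitabine libraries and fell by 0.43 on the log2 scale (edgeR adjusted p = 0.0218). TRIM27, the ligase bound by MAGEL2, rose from 721 to 1199 per kb with a log2 fold change of 0.73 (edgeR adjusted p = 8.19e-04). VPS26A of the retromer, SMC6 of the SMC5/6 complex and the ligase RNF4 rose with log2 fold changes of 0.48, 0.68 and 0.31 (edgeR adjusted p = 0.0170, 0.0399 and 0.0282). The ligases LNX1 and NSMCE1 had log2 fold changes of -1.25 and -0.86 and fell (edgeR adjusted p = 0.00169 and 4.89e-04). The other partners that fell were NSMCE4A, WASH1 and MMS19, with log2 fold changes of -0.43, -0.54 and -0.33. For NGFR, which binds MAGED1, the log2 fold change was 0.06 (edgeR adjusted p = 0.765).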

How the data were processed

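RNA sequencing data of 3 vehicle and 3 guadecitabine libraries of MDA-MB-231 cells were processed, and groups and replicate numbers were taken from the labels. The authors aligned reads to hg19 with STAR 2.3.1z, per the submitters' processing notes, counted tags in exons with iRNA-seq and deposited these raw counts for each RefSeq transcript beside its exon length in bp. The treatment of reads matching several places is not given in the sources used here. The authors also deposited regularized log2 values, a mean normalized signal, and a log2 fold change, a score (the test statistic) and a p-value from their own DESeq2 comparison, and none of these was used.

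The counts were fitted in R 4.3.3 with edgeR 4.0.16 (TMM normalization, filterByExpr with a minimum count of 10, quasi-likelihood test, Benjamini-Hochberg adjustment over 13322 genes, threshold 0.05), and the fit was tested on simulated data. For levels, TMM-normalized counts were brought to a common depth of 17911210, the mean of the library totals, and divided by exon length in kb. The floor was 3 counts. Standard errors and intervals given with edgeR log2 fold changes belong to its quasi-likelihood test. For MAGEA4, MAGEA10, MAGEB1, MAGEB2 and MAGEB17 the estimate without vehicle replicate 3 lay above the interval with all libraries. For these genes the standard errors and intervals therefore do not cover the dependence on that library. Depth was 8792127 to 22277442 counts per library, and no 2 libraries were identical. Alternatives were a replicate block, DESeq2 1.42.0 (Wald test, and its size factors in edgeR), library totals, no filter, MAGEA3 summed with MAGEA6, and each library left out in turn. Members and gene lists were chosen with earlier results of these data known. Values in each library were given for every member, and lists by counts of calls with the values of genes that passed. One gene of the partner list is not reported here.

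Stretches of 50 and 100 bases of GENCODE exons on GRCh37, the assembly of hg19, were counted over both strands with Python 3.11.15. Promoters came from RefSeq on GRCh38.p14, and no coordinates were converted. MAGE genes outside the table were not analysed here.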

Additional observations from a re-analysis of the deposited data

How the results depend on the processing

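Of 191 comparisons of a single tested MAGE gene with an alternative, 175 kept the direction and the side of the threshold, 7 lost a call, 5 gained one and 4 changed sign. The changes of sign were all in MAGEF1, whose log2 fold change of -0.01 became 0.0202 with library totals and 0.00107 without a filter, and ranged from -0.0621 to 0.0371 with 1 library left out. The lost calls were those of MAGEA11, also without a filter (adjusted p = 0.0631), and MAGEB17. Calls were gained by MAGEA10 and by MAGEC1, the latter also without a filter (adjusted p = 0.0422). Leaving out 1 library gave 7 to 11 of 11 tested type I genes called higher, and 3 of 5 tested type II genes called lower each time. The median type I log2 fold change was then 2.90 to 5.40, with the highest value without vehicle replicate 3. It was 3.35 with all libraries, over genes that mostly passed the filter through their guadecitabine libraries. Among all genes, 1706 to 3002 were called higher and 1629 to 2575 lower with 1 library left out. The lowest counts were those without guadecitabine replicate 3, over 13618 tested genes. The highest were those without vehicle replicate 3, over 13296 tested genes, and the cause was not tested. Without a filter the median log2 fold change of all genes was -0.11.

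The replicate block gave 9 type I genes called higher and 3 type II genes called lower, and 2424 genes higher and 2230 lower in all, against 2576 and 2446 without it. Libraries with the same number did not deviate together (correlations of -0.05, 0.05 and -0.04 for replicates 1, 2 and 3), so that the replicate number was not taken as pairing. At the depth of guadecitabine replicate 2, few counts decide whether a low gene passes the floor.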

Other observations

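Genes of other families next to the MAGEA genes on Xq28 were examined as a list. Of 24 listed genes, 18 were in the table, between positions 149934809 and 152864632 of chromosome X on hg19, and 13 were tested. Of these, 5 rose and 3 fell (edgeR's quasi-likelihood test, adjusted p under 0.05), beside 20% higher and 20.2% lower among 470 tested genes of chromosome X outside the MAGE family. PNMA5, a gene derived from a retroelement, had 0, 1 and 23 counts in vehicle and 1167, 504 and 1014 in guadecitabine libraries (log2 fold change 7.10, edgeR adjusted p = 1.19e-05). CSAG1, which begins 42 bp from MAGEA12 on the opposite strand, had 1, 2 and 1 counts in vehicle and 60, 15 and 49 in guadecitabine libraries (log2 fold change 5.00, edgeR adjusted p = 4.27e-04). The cancer/testis gene PASD1 had 0, 0 and 10 counts in vehicle and 58, 21 and 59 in guadecitabine libraries (log2 fold change 4.08, edgeR adjusted p = 0.0109). PNMA5, CSAG1 and PASD1 reached the minimum count of the test only with their guadecitabine libraries. A fall was hardly detectable for these genes, and the count of listed genes that rose is a description. The genes HAUS7 and FAM58A rose with log2 fold changes of 0.37 and 0.53. Those that fell were ZNF185, HMGB3 and CD99L2, with log2 fold changes of -0.58, -0.93 and -1.40.

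Of 14 genes listed for DNA methylation and the control of type I MAGE genes, 12 were tested, 0 rose and 6 fell, beside 19.3% and 18.4% of all genes tested. These were DNMT3A, UHRF1, CTCF, TET1, TET2 and HDAC1, with log2 fold changes of -0.85, -0.76, -0.66, -2.70, -0.75 and -0.64. DNMT1 had a log2 fold change of -0.21 (edgeR adjusted p = 0.102). CTCFL, a testis paralog of CTCF, was not tested and had 0, 0 and 13 counts in vehicle and 5, 0 and 1 counts in guadecitabine libraries. Of the germ cell markers, SYCP3 rose with a log2 fold change of 3.21 (edgeR adjusted p = 1.54e-04), and DDX4 had a log2 fold change of 2.32 (edgeR adjusted p = 0.137). DDX4 had 0, 0 and 26 counts in vehicle and 48, 17 and 34 counts in guadecitabine libraries, so that its vehicle counts all lay in replicate 3.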
